A study of Mus musculus with 32 samples.

Results

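The 10 genes described here encode proteins of T cells and natural killer (NK) cells, and they were chosen by gene symbol from the 55487 gene identifiers of the deposited table. Trac encodes the constant part of the T cell receptor alpha chain. Cd3d, Cd3e and Cd3g encode CD3 chains that carry the receptor's signal into the cell. Cd4, Cd8a and Cd8b1 encode the co-receptors, and Nkg7, Gzma and Gzmb belong to the granules of cytotoxic cells. A T cell recognises a peptide on an MHC molecule through its receptor, CD4 binding MHC class II and CD8 binding MHC class I, while NK cells carry no rearranged receptor but share the granule proteins. The liver holds many resident CD8 T cells and NK cells, and lymphocytes accumulate there in steatohepatitis.

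RNA came from whole livers of mice in 4 groups of 8 libraries, FAAH S268D on NASH-AA, FAAH S268D on NASH, WT on NASH-AA and WT on NASH. FAAH is fatty acid amide hydrolase, which degrades lipid amides such as anandamide and N-acyl taurines. S268D exchanges 1 of its residues, a change that need not alter transcript levels, so Faah mRNA does not check the labels. The design text gives 28 weeks of HFFC feeding, plus or minus ARA, in both genotypes, NASH and NASH-AA are the diet names on the samples, and no group on an ordinary diet was analysed here. The labels name neither sex, age nor animal, so the p-values here speak only of spread among libraries, which may be technical.

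Total counts ran from 3851628 to 34370180 with a median of 22896707. The shallowest library was FAAH S268D NASH replicate 1, and the next held 14743256. Hepatocyte markers, which check the tissue label, summed to between 51620 and 104626 normalised CPM (counts scaled to library size) in every library. In whole-liver RNA, fewer T or NK cells and less RNA per cell cannot be told apart.

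On GRCm38, the CD3 genes lie together on chromosome 9, with Cd3g (44969572 to 44980431), Cd3d (44981786 to 44987339) and Cd3e (44998740 to 45009627) within 40056 bases. Cd3g and Cd3d point away from each other, with starts 1355 bases apart. Cd8b1 (71322788 to 71337494) and Cd8a (71373427 to 71379173) are neighbours on chromosome 6, which also holds Cd4 (124864692 to 124888221). Trac (54220521 to 54224206) and Gzmb (56258838 to 56262260) are on chromosome 14, Nkg7 (43437073 to 43438249) on chromosome 7 and Gzma (113093825 to 113100981) on chromosome 13. Cd3e overlaps the antisense gene Gm48719 and the unconfirmed transcript Gm48720, and reads of overlapping genes cannot be told apart where strand was not used in counting. Between 0 and 8.4% of the 31-base words in a gene's transcripts recurred in other genes, the highest share being that of Cd8b1.

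The bases upstream of the start are printed for the CD3 cluster, whose members are transcribed from neighbouring promoters, and for Cd8a and Gzmb, which gave the steepest fitted differences between genotypes. RefSeq promoter windows (GRCm38.p6) were found for 7 of the 10 genes, and each window here is the 250 bases before the start, on the gene's own strand. They are chr9:44980432-44980681 (minus strand) for Cd3g, chr9:44981536-44981785 (plus strand) for Cd3d, chr9:45009612-45009861 (minus strand) for Cd3e, chr6:71373177-71373426 (plus strand) for Cd8a and chr14:56262335-56262584 (minus strand) for Gzmb. Capitals mark matches, on either strand, to short motifs of lymphocyte transcription factor families.
Cd3g: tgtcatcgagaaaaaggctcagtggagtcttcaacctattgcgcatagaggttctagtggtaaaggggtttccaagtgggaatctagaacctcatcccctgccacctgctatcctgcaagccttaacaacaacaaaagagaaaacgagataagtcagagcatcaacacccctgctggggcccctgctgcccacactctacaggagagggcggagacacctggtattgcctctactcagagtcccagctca
Cd3d: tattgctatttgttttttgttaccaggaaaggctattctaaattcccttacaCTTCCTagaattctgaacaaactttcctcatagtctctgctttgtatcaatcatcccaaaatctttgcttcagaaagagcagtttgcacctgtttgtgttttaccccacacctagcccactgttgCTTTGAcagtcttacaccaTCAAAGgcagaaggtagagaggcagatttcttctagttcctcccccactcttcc
Cd3e: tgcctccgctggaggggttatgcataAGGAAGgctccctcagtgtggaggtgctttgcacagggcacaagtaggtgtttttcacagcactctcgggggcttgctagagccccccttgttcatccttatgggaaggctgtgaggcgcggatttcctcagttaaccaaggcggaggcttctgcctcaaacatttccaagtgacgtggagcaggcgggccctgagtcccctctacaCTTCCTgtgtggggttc
Cd8a: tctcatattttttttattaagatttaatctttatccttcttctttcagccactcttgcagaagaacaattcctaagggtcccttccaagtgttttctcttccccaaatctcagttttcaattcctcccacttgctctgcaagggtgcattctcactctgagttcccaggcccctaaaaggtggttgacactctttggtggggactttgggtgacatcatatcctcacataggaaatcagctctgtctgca
Gzmb: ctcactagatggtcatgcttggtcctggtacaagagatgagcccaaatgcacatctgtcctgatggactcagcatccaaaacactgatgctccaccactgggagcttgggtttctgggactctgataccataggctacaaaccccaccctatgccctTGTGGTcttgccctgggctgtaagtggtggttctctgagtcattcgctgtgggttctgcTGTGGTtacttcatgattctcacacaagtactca
The motifs searched were TGTGGT for RUNX, AGGAAG for ETS, CAGCTG for an E-box, CTTTGA for TCF/LEF and GGTGTGA for T-box factors, and no matches overlapped. Positions are counted back from the start. Cd3d held an ETS match at -198 and TCF/LEF matches at -73 and -54, Cd3e held ETS matches at -224 and -17, and Gzmb held RUNX matches at -93 and -34. These count from the RefSeq start, which for Gzmb lies 74 bases upstream of the annotated gene span given above, and its window was not matched to a transcript of that annotation. For Cd3e and Nkg7 the RefSeq start lies inside that span, so the ends of their windows reach into the annotated gene. Most of the Cd3e match at -17 lies in that part. RUNX letters occurred in 3 of the 7 windows and in 14% of all 32851 windows in the table, ETS in 3 of 7 against 29.5%, TCF/LEF in 1 of 7 against 13.8%, T-box in 1 of 7 (Nkg7) against 3.33%, and the E-box in 0 of 7 against 13%. The windows of Cd3g and Cd8a held none of these letters, which says nothing about the factors.

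All 10 genes drew few reads from whole-liver RNA. Each averaged between 0.212 CPM (Gzma) and 1.43 CPM (Cd4) over the 32 libraries, and counts of a gene in a library ran from 0 to 83. Per kilobase of exon, the mean level was highest for Trac (0.816 ± 0.405 CPM per kb) and Nkg7 (0.678 ± 0.424), then Gzmb (0.425 ± 0.375), Cd4 (0.355 ± 0.192), Cd3e (0.288 ± 0.138), Cd8b1 (0.251 ± 0.168), Cd3g (0.232 ± 0.128), Cd8a (0.229 ± 0.210), Gzma (0.210 ± 0.186) and Cd3d (0.181 ± 0.102; SD, n = 32). Neighbours in that order differed by less than their SDs. Gzma fell below the filter on low counts and was left out of the fit, so 9 of the 10 genes were tested. The filter asked for a minimum level in 8 libraries of any group, so scarce genes such as Cd3d and Cd8b1 could pass through the groups where they were higher.

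**Figure D1:**
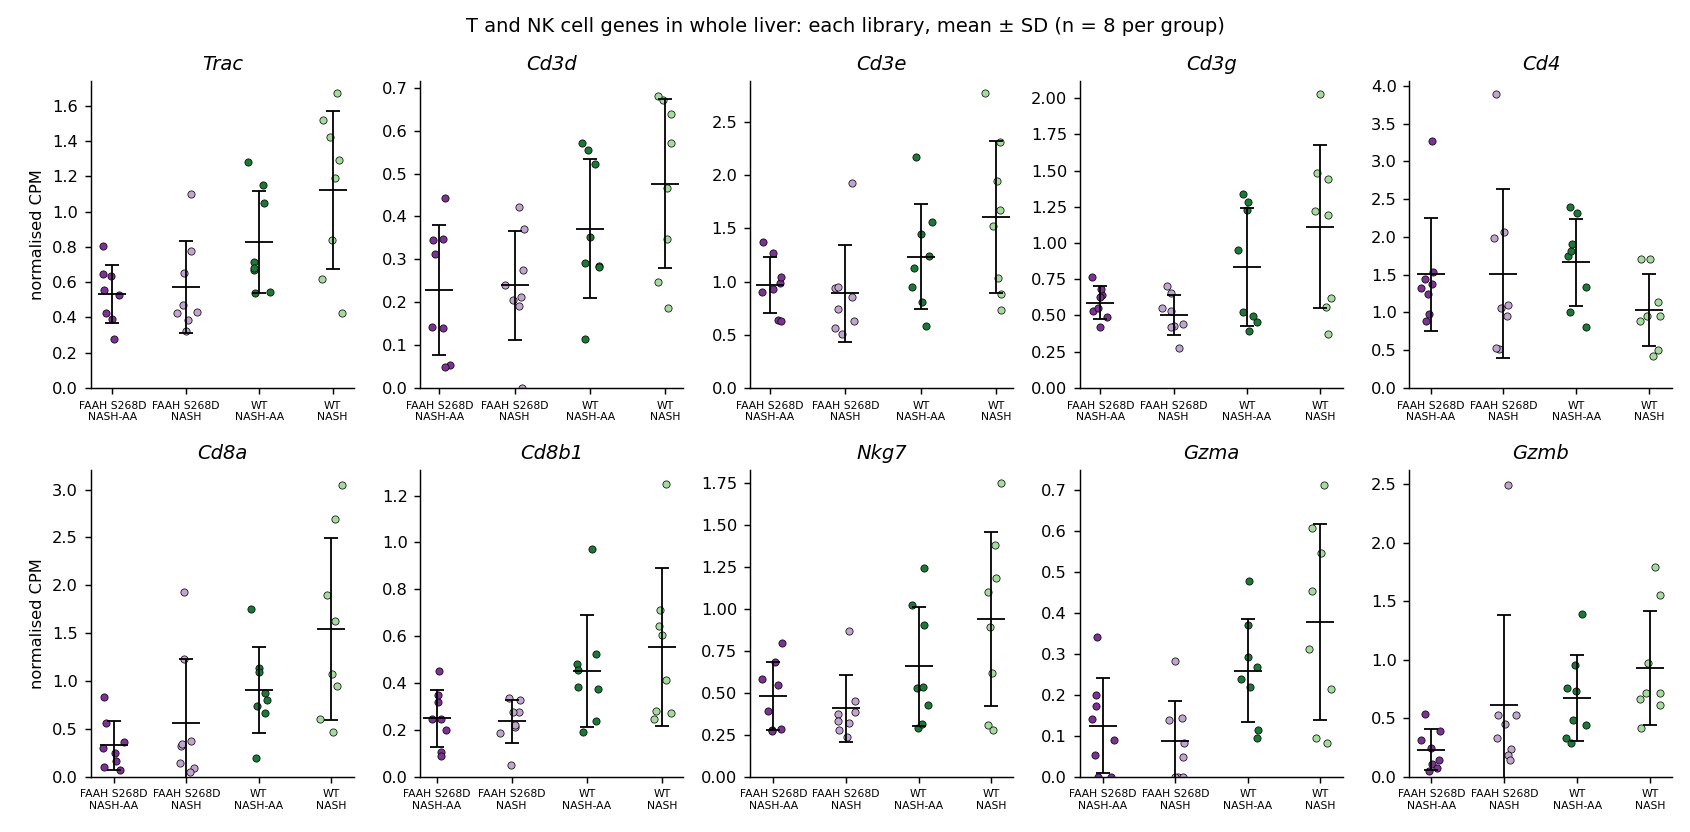
Normalised CPM of each gene in each library (points) with the mean and SD of the 8 libraries per group (bars, cut at 0 where the SD exceeds the mean). For every gene but Cd4 the highest group mean is that of WT NASH, and the ranges of all 4 groups overlap.

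On the NASH diet, transcripts of 4 T cell genes and of Gzmb were called lower in FAAH S268D livers in the fit over all 32 libraries. With the libraries of these groups fitted alone, 0 passed. Of the 9 genes tested, 5 passed with lower levels in FAAH S268D (Trac, Cd3e, Cd3g, Cd8a and Gzmb) and 0 with higher levels, at an adjusted p under 0.05 by limma-voom over 14903 genes. Over all genes tested, 9.19% were called, 6.30% lower and 2.89% higher. Their median log2 fold change was -1.01, against 0.00 over all genes tested. Fitted folds weight each library by its precision and depend on the prior count at these low levels.

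Of the receptor chain and the CD3 chains, Trac, Cd3e and Cd3g passed and Cd3d did not. Trac measured 0.322, 0.451 and 1.1 CPM (lowest, median and highest library) in FAAH S268D NASH, against 0.426, 1.24 and 1.67 CPM in WT NASH. All 8 FAAH S268D libraries lay below the WT median, and 5 WT libraries lay above the highest FAAH S268D library. The fitted difference was -1.01 ± 0.27 (log2 ± SE, adjusted p = 0.0196, limma-voom), or 2.01 times lower.

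Cd3e measured 0.505, 0.796 and 1.93 CPM in FAAH S268D NASH, against 0.735, 1.59 and 2.77 CPM in WT NASH. The FAAH S268D library at 1.93 CPM was the shallowest one, where 7 counts were seen, and the other 7 lay below the WT median. The fitted difference of Cd3e was -0.94 ± 0.28 (adjusted p = 0.0304, limma-voom). Cd3g measured 0.276, 0.487 and 0.704 CPM in FAAH S268D NASH, against 0.370, 1.21 and 2.03 CPM in WT NASH, and 5 WT libraries lay above every FAAH S268D library. Its fitted difference was -1.01 ± 0.32 (adjusted p = 0.0441, limma-voom). Cd3d measured 0.00, 0.226 and 0.422 CPM in FAAH S268D NASH, against 0.186, 0.519 and 0.682 CPM in WT NASH. All 8 FAAH S268D libraries again lay below the WT median, but the fitted difference of -1.15 ± 0.45 did not pass (adjusted p = 0.102, limma-voom). The library with 0 counts of Cd3d, FAAH S268D NASH replicate 4, allows up to 3 counts, or 0.138 CPM. Such limits cover counting error only.

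Of the co-receptor genes, Cd8a gave the steepest fitted difference of the 9 genes. Cd8a measured 0.0459, 0.327 and 1.93 CPM in FAAH S268D NASH, against 0.464, 1.35 and 3.05 CPM in WT NASH, and all 8 WT libraries lay above the FAAH S268D median. Levels within the FAAH S268D group were uneven. Replicates 2, 3 and 4 held 2, 3 and 1 counts of Cd8a (0.0948, 0.141 and 0.0459 CPM), replicates 6, 7 and 8 held 0.317, 0.370 and 0.337 CPM, and replicates 1 and 5 held 1.93 and 1.23 CPM. The fitted difference was -2.15 ± 0.53 (adjusted p = 0.0112, limma-voom), or 4.44 times lower. On unweighted log2(CPM + 0.5), which understates differences of low genes, it was -1.01 (exact two-sided permutation p = 0.0177, unadjusted).

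Cd8b1, the partner chain of the CD8 heterodimer, measured 0.0474, 0.249 and 0.337 CPM in FAAH S268D NASH, against 0.245, 0.508 and 1.25 CPM in WT NASH. Every FAAH S268D library lay below the WT median and 5 WT libraries lay above all of them. The fitted difference of Cd8b1 was -1.09 ± 0.37 and did not pass (adjusted p = 0.0573, limma-voom). Cd4, which in mice is also found on some dendritic cells, measured 0.518, 1.08 and 3.89 CPM in FAAH S268D NASH, against 0.418, 0.948 and 1.71 CPM in WT NASH. Its fitted difference had the opposite sign to that of the other 8 genes, 0.34 ± 0.37, and did not pass (adjusted p = 0.604, limma-voom), and the sign turned with library quality weights. The highest Cd4 levels in the FAAH S268D group, 1.99, 3.89 and 2.07 CPM, were those of replicates 2, 3 and 4, the libraries with the lowest Cd8a.

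Of the granule genes, Gzmb passed, Nkg7 did not and Gzma was not in the fit. Gzmb, which encodes granzyme B, a protease that triggers death of the target cell, measured 0.138, 0.391 and 2.49 CPM in FAAH S268D NASH, against 0.418, 0.712 and 1.79 CPM in WT NASH. The value of 2.49 CPM was 9 counts in the shallowest library, and the other 7 FAAH S268D libraries reached at most 0.530 CPM. The fitted difference was -1.22 ± 0.38 (adjusted p = 0.0387, limma-voom), and -1.36 ± 0.38 without that library (adjusted p = 0.0257). On unweighted log2(CPM + 0.5) with all libraries, the difference was -0.49 (exact two-sided permutation p = 0.124, unadjusted).

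Nkg7, a granule membrane protein gene of cytotoxic cells, measured 0.237, 0.354 and 0.866 CPM in FAAH S268D NASH, against 0.279, 0.995 and 1.75 CPM in WT NASH. Its difference of -1.0 ± 0.37 did not pass (adjusted p = 0.0848, limma-voom), although all 8 FAAH S268D libraries lay below the WT median. Gzma, which encodes granzyme A, was seen with 17 counts in all 8 FAAH S268D NASH libraries and 77 counts in the 8 WT NASH libraries. It measured 0.00, 0.0643 and 0.281 CPM in FAAH S268D NASH, with 3 libraries at 0, against 0.0816, 0.381 and 0.712 CPM in WT NASH. At 0 counts those libraries allow up to 0.829, 0.142 and 0.111 CPM. The difference in log2(CPM + 0.5) was -0.55 (exact two-sided permutation p = 0.00746, unadjusted, 1 of 40 such tests).

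How far these calls rest on single libraries differed by gene. Cd8a passed with each of the 32 libraries left out in turn (adjusted p from 0.00386 to 0.043), and Trac with every one but FAAH S268D NASH replicate 4 (highest adjusted p = 0.0646). Cd3e no longer passed without FAAH S268D NASH replicate 2, 3 or 4 or WT NASH replicate 2, 4, 7 or 8 (highest adjusted p = 0.0921). Gzmb no longer passed without any of those or FAAH S268D NASH replicate 7 or WT NASH replicate 1 (highest adjusted p = 0.118), and Cd3g in 19 of the 32 cases, libraries of all 4 groups among them (highest adjusted p = 0.129). The count of 5 fell to 1 without FAAH S268D NASH replicate 4, to 2 without FAAH S268D NASH replicate 2 or 3 or WT NASH replicate 2, 4, 7 or 8, and to 3 without FAAH S268D NASH replicate 7. With the 16 libraries of these groups fitted alone, 0 of the 7 genes then tested passed, and calls over all genes numbered 68 of 14397, against 1370 of 14903 with all 32 libraries. Cd8a then stood at -2.08 ± 0.59 (adjusted p = 0.0850, limma-voom) and Trac at -0.99 ± 0.31 (adjusted p = 0.104). Over all genes, calls ran from 491 without FAAH S268D NASH replicate 4 to 2653 without WT NASH replicate 5. The library names carry numbers, and within numbers 1 to 16 the differences were -2.22 ± 0.87 for Cd8a, -0.77 ± 0.37 for Trac, -0.76 ± 0.42 for Cd3e, -0.80 ± 0.40 for Cd3g and -1.49 ± 0.54 for Gzmb. Within numbers 17 to 32 they were -2.03 ± 0.50, -1.24 ± 0.41, -1.11 ± 0.35, -1.24 ± 0.54 and -0.89 ± 0.44, in the same order of genes, and 0 genes passed in either set. Cd4 changed sign between the sets, 1.24 ± 0.43 in the first and -0.74 ± 0.54 in the second.

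**Figure D2:**
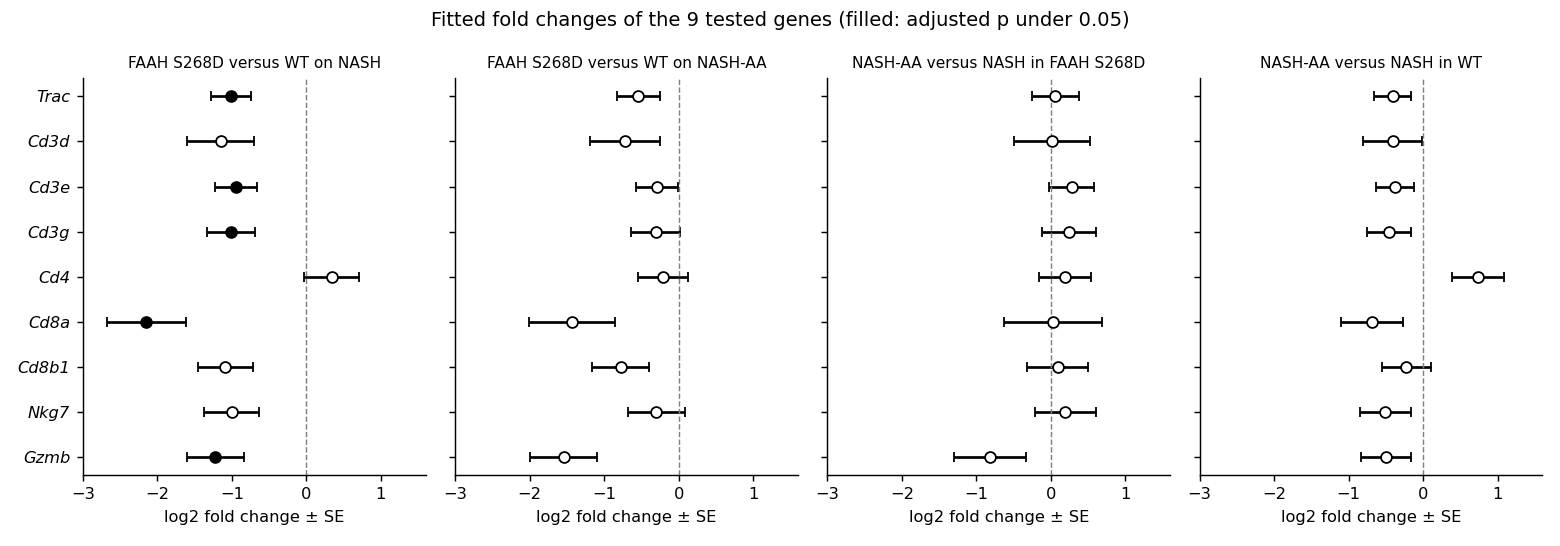
Fitted log2 fold changes with SE (limma-voom) of the 9 tested genes in 4 comparisons. Filled points passed at an adjusted p under 0.05. The 5 filled points, Trac, Cd3e, Cd3g, Cd8a and Gzmb, are all in FAAH S268D versus WT on NASH, and Cd4 is the single gene right of 0 there.

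On the NASH-AA diet the same comparison of genotypes gave 0 genes past the threshold, with 0.658% of all genes called, 0.349% higher and 0.309% lower. These 16 libraries fitted alone gave 626 of 14104 genes, more than the 68 on NASH, so the order of the diets by calls over all genes depends on the fit, and 0 of the 6 genes described that were then tested passed. The fitted values of all 9 genes were negative, with a median of -0.54 against 0.00 over all genes, and 3 of 9 had an unadjusted p under 0.05, as did 2317 of all genes (15.5%). Gzmb measured 0.0495, 0.192 and 0.536 CPM in FAAH S268D NASH-AA, against 0.285, 0.604 and 1.39 CPM in WT NASH-AA, with 4 WT libraries above every FAAH S268D library. Its difference was -1.54 ± 0.45 (adjusted p = 0.112, limma-voom), beside an exact permutation p of 0.00466 without adjustment. Of the adjusted fits that tested Gzmb here, it passed only in that with library quality weights. Gzmb was not among the 6 genes tested with these libraries alone. Cd8a measured 0.0693, 0.269 and 0.831 CPM in FAAH S268D NASH-AA, against 0.190, 0.841 and 1.75 CPM in WT NASH-AA, and its difference was -1.43 ± 0.58 (adjusted p = 0.231, limma-voom). All 8 FAAH S268D libraries lay below the WT median for both genes. Trac averaged 0.532 ± 0.167 CPM in FAAH S268D NASH-AA and 0.828 ± 0.291 CPM in WT NASH-AA, and Cd8b1 0.250 ± 0.121 and 0.451 ± 0.239 CPM (SD, n = 8 each). Cd3e (-0.29 ± 0.28), Cd3g (-0.31 ± 0.33), Nkg7 (-0.30 ± 0.38) and Cd4 (-0.21 ± 0.33) were closer to 0 than these. Gzma was seen with 23 counts in FAAH S268D NASH-AA and 48 counts in WT NASH-AA.

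Diet did not move any of the 9 tested genes past the threshold in either genotype. In FAAH S268D, 0 genes passed with NASH-AA against NASH, and 0.0939% of all genes were called, 0.0268% higher and 0.0671% lower. Their fitted values ran from -0.82 ± 0.48 for Gzmb to 0.28 ± 0.30 for Cd3e with a median of 0.09, and 0 had an unadjusted p under 0.05, as did 12.4% of all genes. Gzmb averaged 0.231 ± 0.173 CPM in FAAH S268D NASH-AA and 0.611 ± 0.772 CPM in FAAH S268D NASH, where 1 library stood at 2.49 CPM. In WT livers, again 0 genes passed, and 4.41% of all genes were called, 1.44% higher and 2.97% lower. That background of 657 genes became 64 when either replicate 5 of WT NASH-AA or replicate 2 of WT NASH was left out, and 2201 when replicate 5 of WT NASH was. Here 8 of the 9 fitted values were negative, from -0.23 ± 0.33 for Cd8b1 to -0.69 ± 0.42 for Cd8a, and the median was -0.41 against 0.01 over all genes. At an unadjusted p under 0.05 there was 1 of the 9 (Cd4), against 24.4% of all genes. Trac averaged 0.828 ± 0.291 CPM in WT NASH-AA and 1.12 ± 0.448 CPM in WT NASH, Cd3e 1.24 ± 0.498 and 1.61 ± 0.717 CPM, and Cd8a 0.907 ± 0.449 and 1.54 ± 0.951 CPM. The WT NASH libraries serve in both this comparison and that of genotypes on NASH.

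Cd4 went the other way in WT livers. It measured 0.806, 1.78 and 2.40 CPM in WT NASH-AA, against 0.418, 0.948 and 1.71 CPM in WT NASH, and 5 WT NASH-AA libraries lay above every WT NASH library. The fitted difference was 0.74 ± 0.35 and did not pass (adjusted p = 0.185, limma-voom), beside an exact permutation p of 0.0367 without adjustment, and of the adjusted fits run it passed only with library quality weights.

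The interaction asked whether the genotype difference depended on diet, and it called 0 of 14903 genes (0%) by limma-voom. At an unadjusted p under 0.05 it had 627 genes (4.21%) and 0 of the 9 genes described here. Cd3g (0.70 ± 0.46), Nkg7 (0.70 ± 0.53), Cd8a (0.72 ± 0.78) and Cd3e (0.65 ± 0.39) had the largest positive values, which correspond to a smaller genotype difference on NASH-AA, and each had an adjusted p of at least 0.906. The genotype difference on NASH is therefore not shown to differ from that on NASH-AA for any of them.

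Libraries of a group varied widely. The 9 genes other than Cd4 summed to 2.84, 3.54 and 4.99 CPM (lowest, median and highest) in FAAH S268D NASH-AA, 2.02, 3.64 and 8.84 CPM in FAAH S268D NASH, 3.70, 5.93 and 9.84 CPM in WT NASH-AA and 4.13, 9.35 and 13.4 CPM in WT NASH. Cd4, left out here, is the gene whose fitted difference on NASH had the opposite sign. With Cd4 added, the medians were 4.95, 4.61, 7.52 and 11.1 CPM, in the same order of groups. The sums that follow leave Cd4 out. Within WT NASH, replicates 2, 4, 6, 7 and 8 summed to between 8.81 and 13.4 CPM, while replicates 1, 3 and 5 summed to 4.45, 4.13 and 5.35 CPM. The highest FAAH S268D sum, 8.84 CPM, was that of the shallowest library, where 1 CPM stands for 3.62 counts, and the next in that group was 4.99 CPM. Over the 10 genes, places among the 8 highest libraries fell to FAAH S268D NASH-AA 2 times, to FAAH S268D NASH 8 times, to WT NASH-AA 29 times and to WT NASH 41 times. Places among the 8 lowest numbered 29, 32, 8 and 11, ties included.

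**Figure D3:**
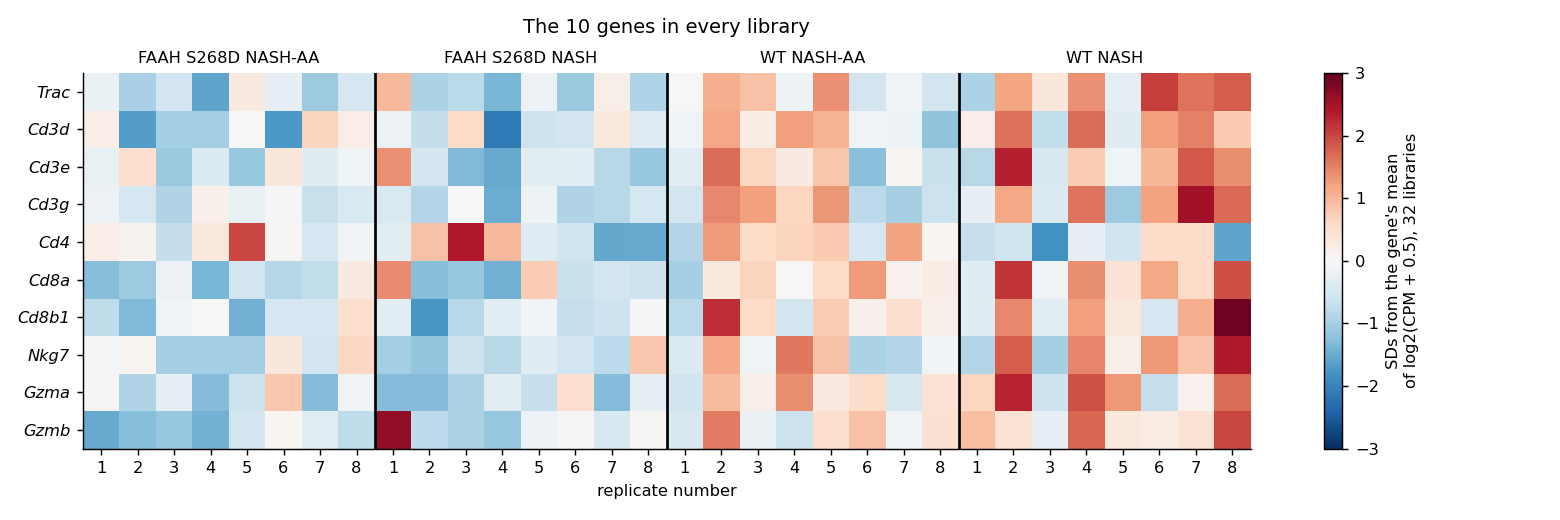
Each gene's log2(CPM + 0.5) in each of the 32 libraries, as SDs from the gene's mean (red higher, blue lower). WT NASH replicates 2, 4, 6, 7 and 8 and WT NASH-AA replicates 2 and 5 are high over most rows, and the row of Cd4 follows another order.

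The ratio of the co-receptor transcripts differed between libraries too. The median log2 ratio of Cd8a to Cd4, with 0.5 CPM added to each and no scaling to length, was -1.4 in FAAH S268D NASH-AA, -0.56 in FAAH S268D NASH, -0.76 in WT NASH-AA and 0.13 in WT NASH. It ran from -2.78 in FAAH S268D NASH replicate 3 to 1.66 in WT NASH replicate 8. This ratio was chosen after the values were seen and was not tested. Its lowest value rests on 3 counts of Cd8a. Cd4 did not track the other genes over the 32 libraries (r = -0.07), so the ratio need not describe CD8 and CD4 T cells.

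**Figure D4:**
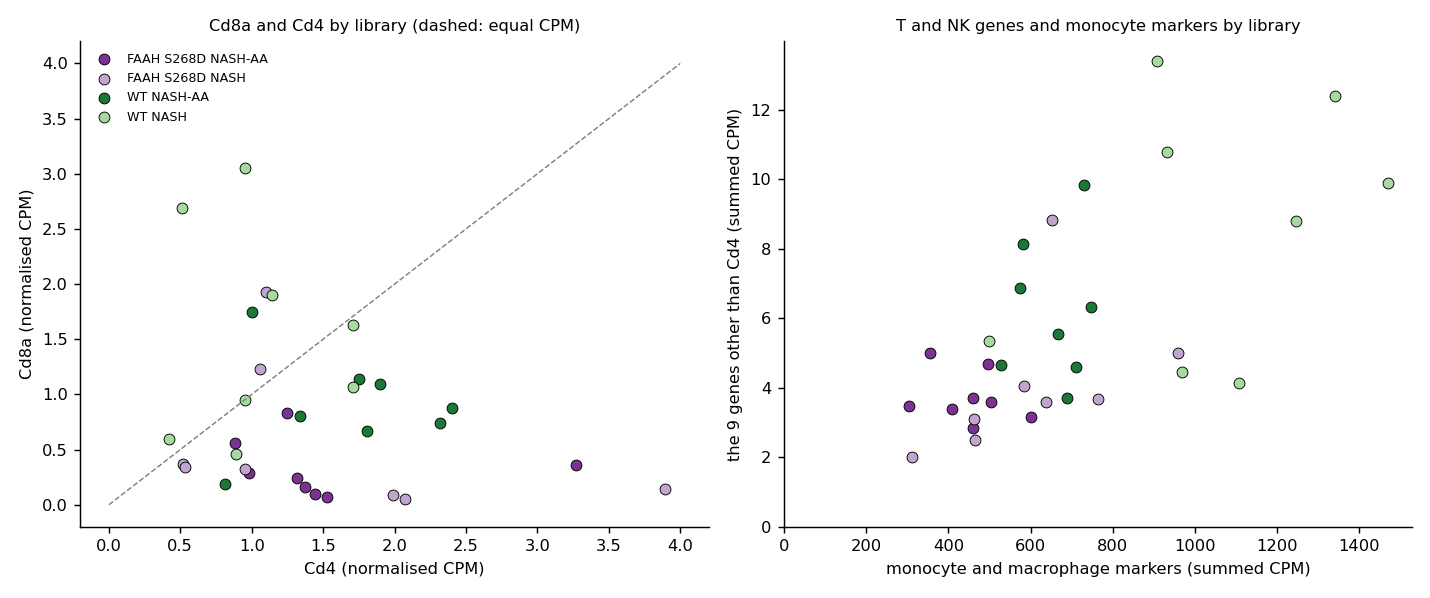
Left, Cd8a against Cd4 in each library (normalised CPM), with a dashed line at equal CPM. The FAAH S268D NASH libraries with the highest Cd4, 1.99, 3.89 and 2.07 CPM, have the lowest Cd8a of their group, on 2, 3 and 1 counts. Right, the summed CPM of the 9 genes other than Cd4 against summed monocyte and macrophage markers. WT NASH libraries reach 13.4 CPM on the vertical axis and 1471 CPM on the horizontal axis. With Cd4 added, the highest sum in WT NASH is 13.9 CPM.

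Other lists held genes of T and NK cells, chemokines that attract them and genes of MHC class I presentation, 76 tested genes in all. On NASH, 20 of these (26.3%) were called lower and 1 (1.32%) higher in FAAH S268D than in WT, beside 6.30% and 2.89% of all genes. These lists were chosen with earlier results of these data known, so the shares are descriptions and not independent support. Some of their genes, such as Fyb, Tyrobp and Ikzf1, are found in myeloid cells too. Genes of MHC class I presentation, such as B2m (1538 ± 136 CPM in WT NASH), and attracting chemokines are not particular to T or NK cells. The 26.3% is therefore not a share of T and NK cell genes alone. Of the 18 other T cell receptor and signalling genes tested, 6 were lower, 1 was higher and 11 did not pass, with a median log2 fold change of -0.64. Cd6, a co-receptor-like surface protein that tunes receptor signalling, averaged 0.210 ± 0.158 CPM in FAAH S268D NASH and 0.727 ± 0.351 CPM in WT NASH (-1.54 ± 0.35, adjusted p = 0.00754, limma-voom). Cd247, the zeta chain of the receptor complex, averaged 0.209 ± 0.189 CPM in FAAH S268D NASH and 0.473 ± 0.158 CPM in WT NASH (-1.51 ± 0.37, adjusted p = 0.0114). Cd5, an inhibitory surface receptor of T cells, averaged 0.139 ± 0.132 CPM in FAAH S268D NASH and 0.489 ± 0.230 CPM in WT NASH (-1.78 ± 0.46, adjusted p = 0.0155). Scarce list genes such as Cd6, Cd247, Cd5 and, below, Ccl4 could pass the filter on low counts through the groups where they were higher. Fyb, an adaptor found also in myeloid cells, averaged 16.2 ± 5.16 CPM in FAAH S268D NASH and 24 ± 5.64 CPM in WT NASH (-0.66 ± 0.16, adjusted p = 0.0103), and Ubash3a and Rhoh were lower as well. The gene that was higher was Zap70, the kinase that binds phosphorylated CD3 chains, at 8.87 ± 3.38 CPM in FAAH S268D NASH and 5.22 ± 1.42 CPM in WT NASH (0.63 ± 0.20, adjusted p = 0.0465). Its means were far above those of Cd247 and the CD3 genes, so it need not follow T cells, and its cell source was not tested. Ubash3a, Rhoh and Zap70 were named after their values were seen.

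Cytotoxic effectors other than the 10 genes had 3 of 5 tested lower and 0 higher on NASH, with a median of -0.79. Ccl4, a chemokine of activated T cells, NK cells and macrophages, averaged 0.276 ± 0.268 CPM in FAAH S268D NASH and 1.03 ± 0.461 CPM in WT NASH (-2.38 ± 0.47, adjusted p = 0.00346, limma-voom). Ccl5, a chemokine of memory T cells and NK cells, averaged 1.81 ± 0.656 CPM in FAAH S268D NASH and 5.89 ± 3.89 CPM in WT NASH (-1.55 ± 0.37, adjusted p = 0.00959). Srgn, the granule proteoglycan of many blood cells, was lower (-0.70 ± 0.15, adjusted p = 0.00507), and Ctsw, a cathepsin of cytotoxic cells, stood at -0.71 ± 0.24 (adjusted p = 0.0557). NK cell receptors had 3 of 5 tested lower, Klrk1, which encodes the activating receptor NKG2D (-0.81 ± 0.17, adjusted p = 0.00463), Tyrobp, an adaptor shared with myeloid cells (-0.88 ± 0.20, adjusted p = 0.00677), and Il2rb, a receptor chain for interleukins 2 and 15 (-0.70 ± 0.22, adjusted p = 0.0457). Il18rap stood at -0.96 ± 0.47 (adjusted p = 0.195). The other 11 symbols of the NK list, Ncr1 and Klrb1c among them, and 8 of the effector list did not pass the filter on low counts. The counts of the NK list therefore do not describe NK cells alone.

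Checkpoint and tissue-residence genes had 2 of 7 lower and 0 higher on NASH, Cd274, which encodes the ligand PD-L1 (-0.80 ± 0.15, adjusted p = 0.00194, limma-voom), and Entpd1, an ectonucleotidase (-0.73 ± 0.16, adjusted p = 0.00565). Havcr2 (-0.72 ± 0.26) and Cxcr6 (-0.73 ± 0.39) did not pass. Transcription factors had 1 of 12 lower, a share near the 6.30% of all genes, namely Ikzf1, a regulator of lymphoid development also found in myeloid cells (-0.82 ± 0.21, adjusted p = 0.0136), and Runx3 (-0.89 ± 0.30), Ikzf3 (-0.89 ± 0.32) and Tcf7 (-0.38 ± 0.14) did not pass. T cell attracting chemokines and their receptors had 3 of 13 lower, among them Cxcl16 (-0.75 ± 0.15, adjusted p = 0.00462) and Cxcl10 (-0.98 ± 0.23, adjusted p = 0.0086), and Cxcl9 stood at -0.76 ± 0.26 (adjusted p = 0.0575). Genes of MHC class I presentation had 2 of 10 lower by small amounts, Tapbp (-0.22 ± 0.06) and Psmb8 (-0.37 ± 0.11), with Tap1 (-0.21 ± 0.08) and H2-D1 (-0.23 ± 0.09) not passing. Of regulatory T cell genes 0 of 2 tested passed (Lrrc32 -0.27 ± 0.11, Ikzf2 -0.01 ± 0.35), and of gamma-delta and type 17 genes 0 of 4 (among them Maf -0.21 ± 0.11, Zbtb16 -0.35 ± 0.48, Sox13 0.05 ± 0.08). Lrrc32 averaged 19.4 CPM in FAAH S268D NASH and 23.4 CPM in WT NASH, and Maf 46.0 and 53.8 CPM, far above the CD3 genes. Which cells they came from was not tested. Foxp3, Trdc, Trgc1 and Trgc2 did not pass the filter, so these counts do not describe regulatory or gamma-delta T cells. Il17a and Il17f had 0 counts in all 32 libraries.

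In WT livers, 3 of the 76 list genes tested (3.95%) were lower on NASH-AA than on NASH, beside 2.97% of all genes, a share near the background. They were Srgn (-0.50 ± 0.14, adjusted p = 0.0399, limma-voom), Klrk1 (-0.62 ± 0.16, adjusted p = 0.0312) and Cxcl16 (-0.64 ± 0.15, adjusted p = 0.0211). In FAAH S268D livers 0 of their genes passed with diet, and between genotypes on NASH-AA 0 passed, with Cd247 (-1.13 ± 0.35, adjusted p = 0.139), Fyb (-0.52 ± 0.17), Tyrobp (-0.68 ± 0.20), Ccl5 (-1.12 ± 0.41) and Cxcl9 (-0.96 ± 0.26, adjusted p = 0.0826) among the smallest p-values of their lists.

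**Figure D5:**
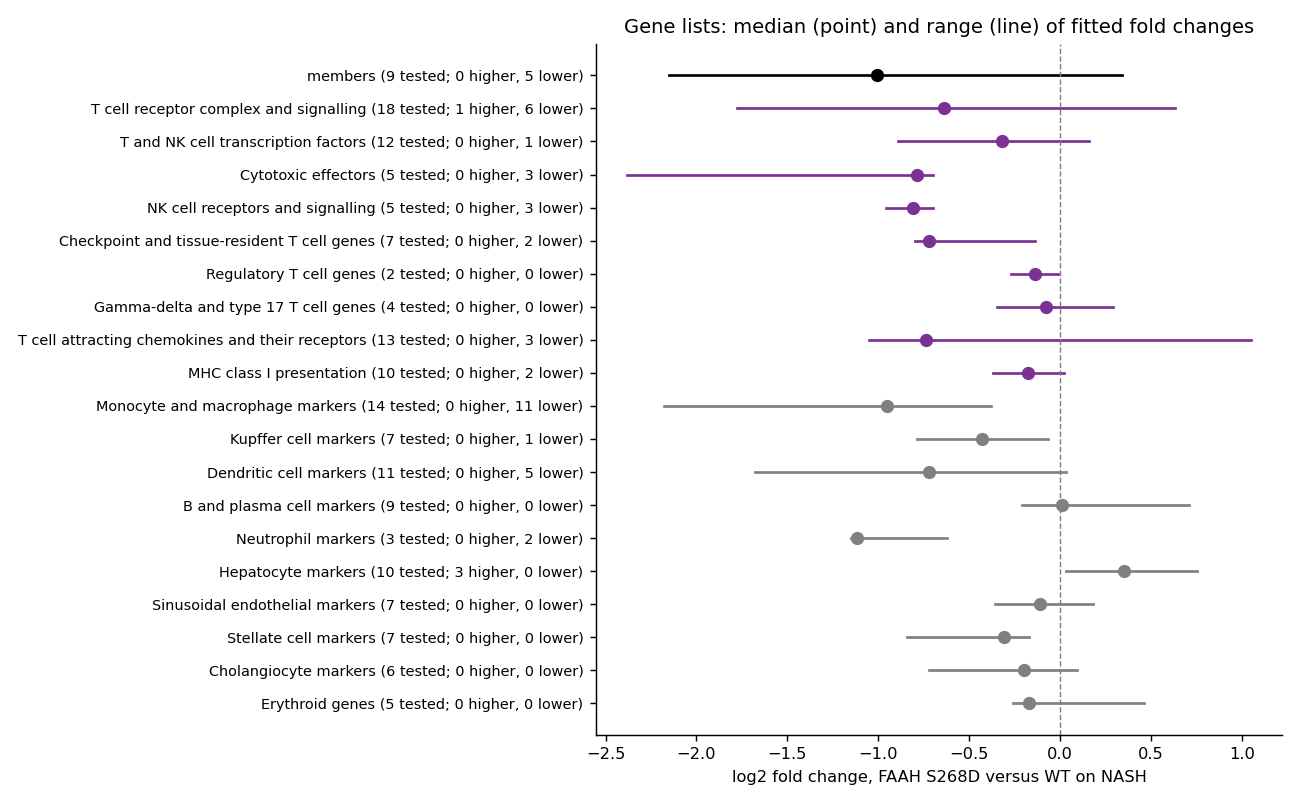
Median (point) and range (line) of fitted log2 fold changes per gene list, FAAH S268D versus WT on NASH, with the numbers tested and called in the row labels (members are the 10 genes described). The median of the 9 tested genes is -1.01, that of monocyte and macrophage markers -0.95, of B and plasma cell markers 0.01 and of hepatocyte markers 0.35.

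Markers of other cell types moved with the same comparison. Monocyte and macrophage markers had 11 of 14 lower in FAAH S268D on NASH and 0 higher (median -0.95), and their summed level ran from 312 to 958 CPM in FAAH S268D NASH, against 498 to 1471 CPM in WT NASH. Dendritic cell markers had 5 of 11 lower (161 to 496 CPM in FAAH S268D NASH, 284 to 578 CPM in WT NASH), neutrophil markers 2 of 3 (3.54 to 10.8 and 5.47 to 22.8 CPM) and Kupffer cell markers 1 of 7 (331 to 613 and 380 to 872 CPM). Hepatocyte markers had 3 of 10 higher and 0 lower (60792 to 104626 CPM in FAAH S268D NASH, 51620 to 78608 CPM in WT NASH). Of B and plasma cell markers 0 of 9 passed, with a median of 0.01 (16.6 to 109 and 18.8 to 150 CPM), and 0 passed among 7 sinusoidal endothelial, 7 stellate, 6 cholangiocyte and 5 erythroid genes. No gene of these lists was at 0 in all libraries. The part of these other cells in the differences of the T and NK cell genes was not tested.

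Genes whose levels were most like the mean standardised level of the 9 tested genes over the 32 libraries were led by Ccl5. Pearson's r was 0.88 for Ccl5, 0.83 for Tgtp1, an interferon-inducible GTPase, and Ms4a4b, a membrane protein of T cells, 0.81 for Bcl11b, a T lineage transcription factor, and 0.80 for Sh2d2a, a T cell adaptor. Gm12250 (0.78), Irf1, Trbc1 and Spn (0.77 each) and Lck (0.76) followed. Trbc1 is the constant part of the receptor's beta chain, Lck the kinase bound to CD4 and CD8, and Irf1 an interferon-response factor. With each group's mean subtracted the list was led by Ccl5 (0.80), Bcl11b (0.76), Tgtp1 and Irf1 (0.74 each), and then held Lck and Ms4a4b (0.73 each), Kcnq1ot1 (0.72), Sh2d2a (0.71), and Dtx1 and Grap2 (0.69 each). These are descriptions, over libraries that differ in depth and in the levels of other cell types' markers.

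Among themselves, the genes tracked each other except for Cd4. Against the mean of the other 8, r over the 32 libraries was 0.85 for Trac, 0.84 for Cd3g, 0.80 for Cd3e, 0.74 for Cd8a, 0.72 for Cd3d and Nkg7, 0.71 for Cd8b1, 0.59 for Gzmb and -0.07 for Cd4. After subtracting group means it was 0.75 for Trac, 0.77 for Cd3g, 0.74 for Cd3e, 0.59 for Cd8a, 0.57 for Cd3d, 0.62 for Nkg7, 0.55 for Cd8b1, 0.45 for Gzmb and 0.08 for Cd4. The genes most like Cd4 over the 32 libraries, examined after its values were seen, were Gm50136 (r = 0.80), Nrbp2 (0.78), Nlrp6, Rnase4 and C8b (0.77 each), F11 (0.76), AI463229, Gm30262 and Apom (0.75 each) and Gm31583 (0.73). C8b, F11 and Apom encode a complement component, coagulation factor XI and an apolipoprotein, which hepatocytes secrete into plasma, and no T cell receptor or CD3 gene was among these 10.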

How the data were processed

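For the 32 polyA libraries of whole liver, the authors deposited a single table holding estimated counts of 55487 gene identifiers, with 0 columns of other samples. The submitters' processing notes name GRCm38, STAR 2.7.10, UMI-tools 1.1.2 and Trim Galore 0.6.7. How reads were assigned to genes, and whether by strand, is not given in the sources used here. Many deposited cells had been altered as text, and 87.9% of 1775584 were whole numbers. Others held digit-grouping marks (11.4%), a clock time (0.471%) or a fraction of a day (0.107%). Fixed rules restored them, and of 3713 cells with 2 possible originals (0.21%) the one closer to the gene's depth-scaled median was taken. Of the 320 cells of these 10 genes 5 were not whole, and 1 had 2 possible originals, which round to the same count.

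Values were rounded. Because the altered table could not be read as counts, its unit was recorded as other, and limma-voom (limma 3.58.1, R 4.3.3) was used, with TMM factors by own code, which trimmed 30% of log ratios and 5% of mean levels, and a prior count of 0.5. Genes with the CPM of 10 counts in a median-sized library in 8 libraries, and 15 counts in total, were kept (14903). One mean per group was fitted over all 32 libraries, and calls were made at a Benjamini-Hochberg adjusted p of 0.05 over all genes tested. Single genes were also tested by exact two-sided permutation of 8 against 8 libraries (12870 splits) on log2(CPM + 0.5). The fit was also run on simulated counts, with changes set in WT NASH-AA only and the same spread for all genes. That run does not bear on the calls of these scarce genes between genotypes.

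The genes and the lists were chosen with earlier results of these data known. All 10 genes are described for genotypes on NASH. For the other comparisons the text gives values of only some of them, and the figure of fitted fold changes shows all tested ones except in the interaction. From each T and NK list up to 4 genes of smallest unadjusted p are given. Some genes of these lists are not reported here. Alternatives were other size factors, no filter or a filter of 1 CPM in 8 libraries, blocks for replicate and library number, library numbers 1 to 16 or 17 to 32 alone, the groups alone, quality weights, limma-trend, no rounding, the other reading of ambiguous cells, and leaving out each library. No 2 libraries held identical counts. Positions come from GENCODE and promoter windows from RefSeq, both on GRCm38. Protein sequences were not used here.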

Additional observations from a re-analysis of the deposited data

Results flagged for a closer look

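In 7 of the 40 groups of 8 libraries examined (10 genes in 4 groups), 1 library stood far above the rest, with a gap to the next of more than 0.526 of the group's range. For normally distributed values chance flags about 1 group in 20. CPM resting on few counts need not follow that rate, so 7 is not read as an excess. In the shallowest library, FAAH S268D NASH replicate 1, Cd3e reached 1.93 CPM (next 0.949) and Gzmb 2.49 CPM (next 0.530), on 7 and 9 counts. Cd4 reached 3.89 CPM in FAAH S268D NASH replicate 3 (next 2.07) and 3.27 CPM in FAAH S268D NASH-AA replicate 5 (next 1.53). These libraries had the lowest ratio of Cd8a to Cd4 in their groups, which high Cd4 itself lowers. Cd8b1 stood at 0.970 CPM in WT NASH-AA replicate 2 (next 0.522) and at 1.25 CPM in WT NASH replicate 8 (next 0.712). There the 9 genes other than Cd4, Cd8b1 among them, had the highest sum of their groups (9.84 and 13.4 CPM). Nkg7 stood at 0.866 CPM in FAAH S268D NASH replicate 8 (next 0.450), on 18 counts.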

How the results depend on the processing

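Of 1977 values of single genes under alternatives, 1854 kept their direction and their side of the threshold, 60 no longer passed, 18 newly passed (8 of them by the permutation test, which is unadjusted) and 45 changed sign. No value reported as passing changed sign. For FAAH S268D versus WT on NASH, the count of 5 genes became 3 without a filter (Cd8a, Trac and Gzma), 3 with limma-trend (Cd3g, Cd8a and Trac), 2 with the replicate block (Cd3e and Cd8a) and 0 with library numbers 1 to 16 alone, with numbers 17 to 32 alone or with the groups alone, and 1 to 6 with a library left out, where the smaller sets leave fewer samples. Whether the replicate numbers pair the libraries is not given by the labels, and these correlations cannot settle it. Of 48 same-numbered pairs, 15 had deviations correlated above 0.1 (range -0.53 to 0.43), and 6 of 32 libraries correlated best with their own number. The pairs of replicate 1 ran from 0.221 to 0.432. Quality weights raised the count on NASH to 6 (Cd8b1 added) and gave 1 gene in WT with diet (Cd4) and 1 between genotypes on NASH-AA (Gzmb). The counts for diet in FAAH S268D and for the interaction were 0 under every alternative run.

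The causes of the changes of sign were not tested. For diet in FAAH S268D, Cd3d became -0.03 by permutation, -0.02 with the library number block, -0.14 in numbers 17 to 32, -0.06 with limma-trend, -0.03 without a filter, -0.01 with the replicate block and -0.32 with quality weights. Cd8a became -0.21 by permutation, -0.23 in numbers 1 to 16, -0.26 with limma-trend, -0.01 without a filter and -0.22 with quality weights, and Trac -0.04 by permutation, -0.06 in numbers 1 to 16, -0.06 with limma-trend and -0.11 with quality weights. Cd4 became -0.65 in numbers 1 to 16 and Cd8b1 -0.06 in numbers 17 to 32. For diet in WT, numbers 1 to 16 gave 0.17 for Cd3e, 0.12 for Cd3g, 0.07 for Cd8b1 and 0.17 for Trac. Between genotypes on NASH, Cd4 became -0.74 in numbers 17 to 32 and -0.10 with quality weights. In the interaction, numbers 17 to 32 gave 0.63 for Cd4 and 0.16 for Gzmb, and numbers 1 to 16 gave -0.23 for Trac. With 1 library left out, diet in FAAH S268D ranged from -0.45 to 0.23 for Cd3d, -0.27 to 0.35 for Cd8a, -0.16 to 0.26 for Cd8b1, -0.03 to 0.43 for Cd4 and -0.03 to 0.16 for Trac, and the interaction from -0.04 to 0.64 for Cd3d. Counts per library of 0 to 83 limit all of these values.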
